A study of Oryza sativa with 4 samples.

Results

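The silicon transporter genes Lsi1 (Os02g0745100), Lsi2 (Os03g0107300) and Lsi6 (Os06g0228200) were examined in RNA of rice root hairs. They were taken by gene ID alone, as every non-control probe whose name starts with the ID of 1 of these genes in the Rice Annotation Project (RAP). This gave 3 of the 29689 RAP genes on the array and 6 of its 42477 probes: 1 probe for Lsi1, 1 for Lsi2 and 4 for Lsi6. The RefSeq genes matched to Lsi1, Lsi2 and Lsi6 (LOC4330713, LOC4331328 and LOC4340558) lie on chromosomes 2, 3 and 6. The probe names place all 6 probes in coding sequence plus 3′UTR. Sequences of the probes, transcripts and proteins were not used here.

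Rice roots take up silicic acid, which is deposited as silica in the shoot. Lsi1 is a channel of the NIP group of aquaporins, which also lets arsenite pass, and it lies on the outer side of the exodermis and endodermis cells of the root. Lsi2 is an exporter driven by the proton gradient, on the inner side of the same cells, so that both together carry silicic acid towards the stele. Lsi6, a close relative of Lsi1, is known from root tips and from the xylem parenchyma and nodes of the shoot, where it unloads silicic acid from the xylem. Root hairs are outgrowths of single epidermal cells, the layer outside the exodermis.

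The root hairs were rubbed with a brush from frozen seminal roots of seedlings at 3 days after germination, grown on agar medium without any treatment that differed between samples. Cy3-labelled cRNA made from total RNA was hybridised to 4 Agilent rice 4x44K arrays in 1 colour, 1 sample per array. Replicates 1, 2 and 3 are labelled as cultivar Don-gin and titled DJ, and the remaining sample is labelled Lon-gin and titled LJ. The methods describe biological replicates of Dongjin rice only. The 4 arrays were therefore read as replicates of 1 condition, and the odd one is called the Lon-gin array. Whether its label and title mark another cultivar is not settled by the sources used. Slide 1 held replicates 1 and 2, slide 2 held replicate 3 with the Lon-gin array, and the series holds no other tissue. Values of the 4 arrays are given in the order replicate 1, replicate 2, replicate 3, Lon-gin array. The purity of brushed hairs limits the samples as a model of the hair cell.

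Levels are log2 of the background-subtracted processed signal of the scanner software, scaled so that the 75th percentiles of the arrays are equal. The arrays were not equally bright. The 75th percentile before scaling was between 10.59 and 10.73 on slide 1 and between 11.49 and 11.80 on slide 2, and the share of probes called well above background was between 71.5% and 88.6%. Within each slide the brighter array, replicate 2 or the Lon-gin array, also had the higher share. With so few arrays the precision of every mean below is limited, and levels of different probes are not set against each other, since probes bind with different strength.

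Transcripts of Lsi1 and Lsi6 were measured in the root hair RNA on all 4 arrays, and that of Lsi2 was at the limit of detection. With a gene counted as detected when at least 1 of its probes was well above background on every array, 2 of the 3 genes were detected, beside 67.8% of all RAP genes on the array. By probes, 5 of the 6 were detected on all arrays, beside 70.6% of all RAP probes. The share of the 3 genes is thus near that of the array as a whole. In such bulk RNA, fewer cells of a type and less RNA per cell cannot be told apart. The part of RNA from other root cells in the preparation was not assessed here. The study checked its preparation by microscopy and by RT-PCR. It reported OsBOR1, a boron transporter gene of exodermis, endodermis and stele, as high in roots and weak in the hair samples. OsEXPA17, an expansin gene of root hairs, was reported as strong in the hairs and weak in roots. By microscopy the study described the samples as highly enriched in hairs. These assays were not analysed here.

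For Lsi1, the uptake channel, the processed signal of probe AK069842 was 409, 1175, 676 and 1893. The lowest of these was 61.5 times the lowest signal called well above background on its array, and each signal was at least 22.2 times the 99th percentile of the negative control spots. The channel gene was therefore far from the detection limit on each array. The scaled level was 9.79 ± 0.76 (SD, n = 4), with 9.24, 10.62, 9.07 and 10.24 on the arrays. Replicate 2 and the Lon-gin array were high, replicates 1 and 3 were low, and each slide held 1 array of either kind. The highest and the lowest array differed 2.94-fold, and the SD of this probe was larger than that of 83.6% of the 29573 probes detected on every array. The median SD of those probes was 0.38, and that of repeated spots of 1 probe within an array was 0.11.

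**Figure D1:**
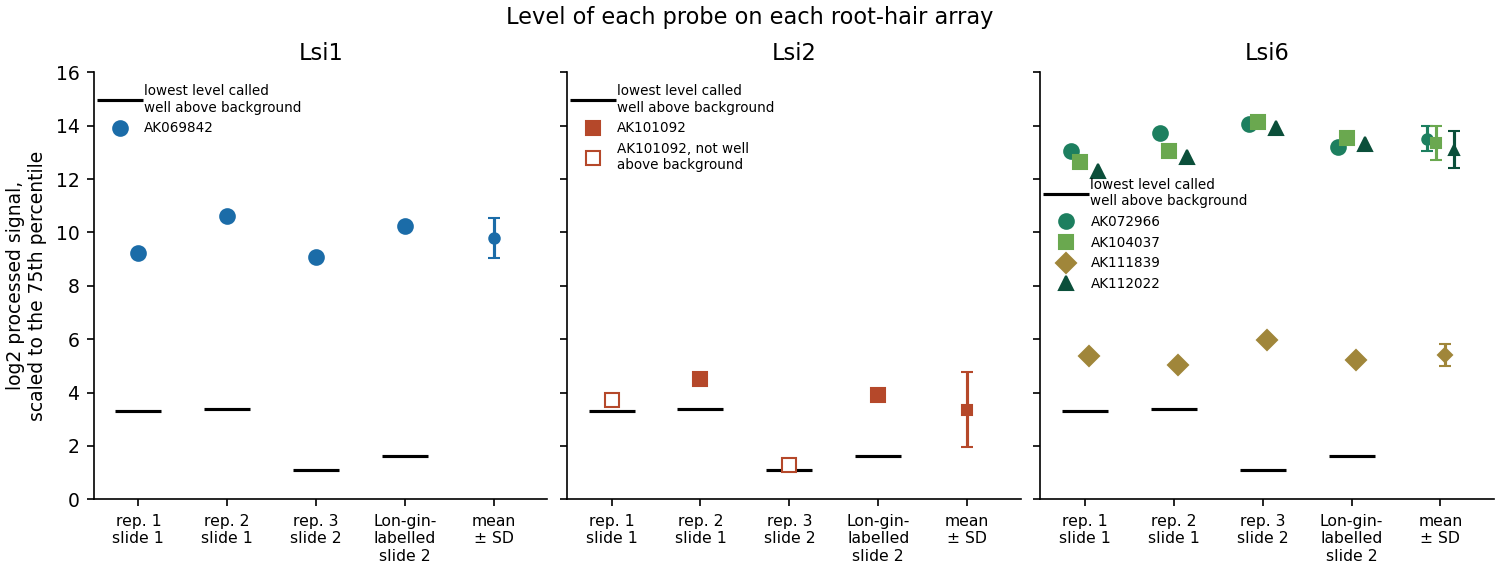
Scaled log2 processed signal (vertical axis) of the 6 probes on each array (horizontal axis), in 1 panel per gene, with mean ± SD over 4 arrays at the right of each panel. Open squares mark spots not well above background, and black bars give the lowest level called well above background on each array. Lsi1 lay between 9.07 and 10.62, Lsi2 close to the bars on replicates 1 and 3, and 3 of the 4 Lsi6 probes between 12.30 and 14.12.

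For Lsi2, the exporter, probe AK101092 gave a processed signal of 9.02 ± 3.28, 16.8 ± 3.49, 3.11 ± 2.01 and 23.9 ± 3.25, where ± is the error that the scanner software estimates for the spot. The call well above background was made on replicate 2 and the Lon-gin array and not on replicates 1 and 3. By this call the exporter had a measured level on 2 arrays and only a bound on the others. This combination of calls was found for 83 RAP probes (0.198%), and calls on exactly 2 arrays, whichever they were, for 9.92%. The software's weaker call, signal positive and significantly above background, was made on all 4 arrays, and under it all 3 genes were detected, beside 81.4% of RAP genes.

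Set against the negative control spots, the Lsi2 signal was 0.49, 0.94, 0.50 and 1.31 times their 99th percentile. It passed that percentile only on the Lon-gin array. The estimated error was 36.3%, 20.7%, 64.5% and 13.6% of the signal. On the scaled log2 scale Lsi2 was 4.50 on replicate 2 and 3.92 on the Lon-gin array, where it was called well above background. The values of 3.74 on replicate 1 and 1.30 on replicate 3 lie where the spot was not well above background, so they set no order among the arrays. Taken over all 4 values as they stand, the mean was 3.37 ± 1.41 (SD, n = 4), and it rests on the treatment of background, being 7.19 with normexp correction and quantile normalization and 5.64 in the deposited log2 values.

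**Figure D2:**
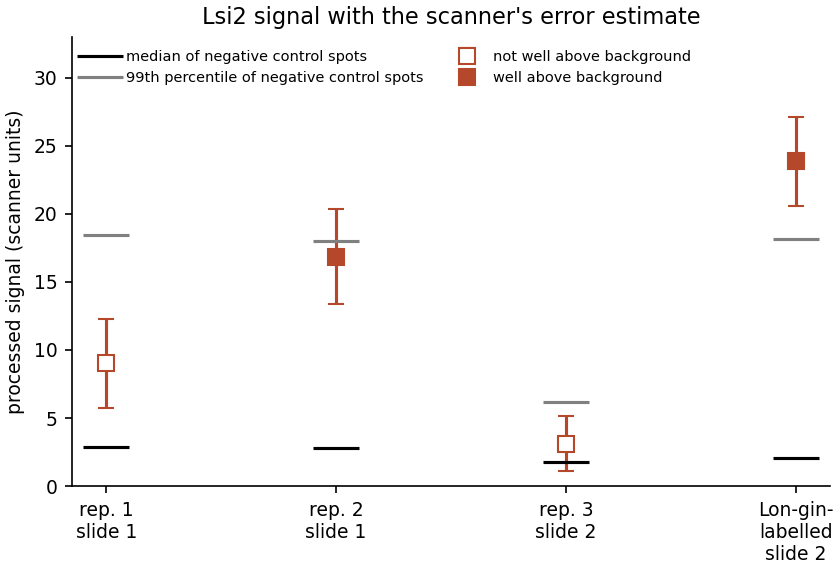
Processed signal of the Lsi2 probe in scanner units (vertical axis) on each array, with the software's error estimate as bars. Filled squares are well above background, black and grey lines are the median and the 99th percentile of the 153 negative control spots of the array. The signal exceeds the grey line on the Lon-gin array, with 23.9 against 18.2, and lies under it on the other 3 arrays.

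For Lsi6, 3 probes gave strong signals. Probe AK072966, for transcript Os06t0228200-02, was at 5817, 10124, 21487 and 14771. The probes AK104037 and AK112022 share transcript Os06t0228200-01. The first of them was at 4285, 6376, 22463 and 18715, and the second at 3416, 5431, 19453 and 16116. On each array these signals were at least 185 times the 99th percentile of the negative controls, so that Lsi6 was measured with a wide margin through each of these 3 probes.

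After scaling, AK072966 was 13.51 ± 0.46, AK104037 was 13.34 ± 0.64 and AK112022 was 13.09 ± 0.69 (SD, n = 4). Replicate 1 was lowest and replicate 3 highest for all 3. The arrays of slide 2 were both above those of slide 1 for AK104037, with 14.12 and 13.54 against 12.63 and 13.06, and for AK112022, with 13.91 and 13.32 against 12.30 and 12.83, a pattern shared by 24.3% of detected probes. For AK072966 the slides overlapped, 13.07 and 13.73 against 14.06 and 13.20. The fold between the highest and lowest array was 1.98, 2.81 and 3.06 for the 3 probes, beside a median of 1.79 over detected probes.

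The remaining Lsi6 probe, AK111839, for transcript Os06t0228200-03, was dim. Its processed signal was 27.8, 24.5, 80.0 and 58.3, well above background on each array. The lowest of these, on replicate 2, was 1.36 times the 99th percentile of the negative controls and that on replicate 3 was 12.9 times, so on slide 1 the spot stood only a little above the controls. The scaled level was 5.40 ± 0.41 (SD, n = 4), again highest on replicate 3 (5.99) and lowest on replicate 2 (5.04). Like that of Lsi2, this mean depends on the background treatment, with 7.54 under normexp and 6.39 in the deposited values. Whether the dim signal reflects the transcript or the binding of the probe was not tested.

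The 2 probes of 1 transcript, AK104037 and AK112022, followed each other most closely. After centring each probe on its own mean, they had a root mean square difference (log2) of 0.048, while every other pair of Lsi6 probes differed by between 0.36 and 0.45. The array order of Lsi6 is therefore best read from several probes, and all 4 agree only in placing replicate 3 highest.

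The Lon-gin label raises the question of whether that array differed from the other 3 in these genes. A comparison of 1 array with 3 by limma has 2 residual degrees of freedom and could miss even large differences. The differences are therefore given with their intervals, and a missing call does not answer the question. With Benjamini-Hochberg adjustment over the 37689 probes, 0 of the 5 probes of Lsi1 and Lsi6 were called and 0 had an unadjusted p under 0.05, beside 1 probe of the whole array called (0.00265%) and 8.43% under 0.05 unadjusted. For Lsi1 the Lon-gin array had 10.24 against 9.64 ± 0.85 (SD, n = 3), a difference of 0.59 with a standard error of 0.75 and a 95% confidence interval of −1.34 to 2.52 (limma, adjusted p = 0.886). The interval includes no difference as well as one of more than 4-fold.

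Lsi2 entered the fit only through the Lon-gin array, where it was measured at 3.92, and it was not well above background on 2 of the other 3 arrays. No difference is read for it. With the slide as a block limma called it (adjusted p = 0.0298, with 1 residual degree of freedom), but that fit sets the Lon-gin array against replicate 3 alone, where Lsi2 had only a bound.

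Against the mean of the other 3 arrays, the Lsi6 probes differed in sign on the Lon-gin array. The difference of AK072966 was −0.42, with an interval of −1.84 to 0.998, and that of AK111839 was −0.25, with −1.64 to 1.15. AK104037 had a difference of 0.27, with −1.53 to 2.07, and AK112022 one of 0.31, with −1.57 to 2.19. The limma adjusted p of these 4 probes was between 0.888 and 0.934. With the slide as a block, which leaves the Lon-gin array against replicate 3, all 4 differences were below 0, at −0.86 for AK072966, −0.58 for AK104037, −0.77 for AK111839 and −0.59 for AK112022 (limma, adjusted p between 0.726 and 0.953). The sign of 2 of the 4 probes thus turned with the slide.

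As a check of the slides, slide 2 was compared with slide 1 over 35922 probes, of which limma called 1130 (3.15%), with 20.7% under 0.05 unadjusted. Each slide had its own scan and its own samples, and slide 2 holds the Lon-gin array. Differences of slide, scan and sample cannot be told apart here. Of the 5 member probes tested, 0 were called and 2 had an unadjusted p under 0.05. These were the probes of 1 Lsi6 transcript. AK104037 had a difference of 0.99 with a standard error of 0.35 (limma, adjusted p = 0.219), and AK112022 one of 1.05 with a standard error of 0.36 (limma, adjusted p = 0.213). The difference was −0.28 for Lsi1, with an interval of −2.01 to 1.45, and it was 0.23 for AK072966 and 0.40 for AK111839 (limma, adjusted p between 0.560 and 0.824). Lsi2 was well above background on 1 array of each slide and was left out by the filter on dim probes.

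Since the slides differed for many probes, the arrays were also compared within a slide, which was chosen after the values had been seen and gives 1 array against 1 with no test. Lsi1 was higher on replicate 2 than on replicate 1 by 1.38 on the log2 scale (2.61-fold) and higher on the Lon-gin array than on replicate 3 by 1.17 (2.25-fold). Of all detected probes, 8% were higher by more than 1 in the first pair, 8.87% in the second and 742 (2.51%) in both. Over 7 ways of scaling, background correction and spot choice, the Lsi1 difference stayed between 1.07 and 1.52 in the first pair and between 0.97 and 1.49 in the second. The higher array of each pair was also the one with the higher share of detected probes, and the part of array brightness in the Lsi1 difference was not tested.

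Lsi6 did not share this pattern. The probes AK072966, AK104037 and AK112022 were higher on replicate 2 than on replicate 1 by 0.66, 0.43 and 0.53 and lower on the Lon-gin array than on replicate 3, with differences of −0.86, −0.58 and −0.59. AK111839 was lower in both pairs, with −0.32 and −0.77. All of these lie inside the range from the 5th to the 95th percentile of detected probes. This range was −0.71 to 1.22 in the first pair and −0.87 to 1.46 in the second. Lsi1 lay above the range in the first pair and inside it in the second. For Lsi2 each pair holds an array on which it was not well above background, and no difference is given.

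**Figure D3:**
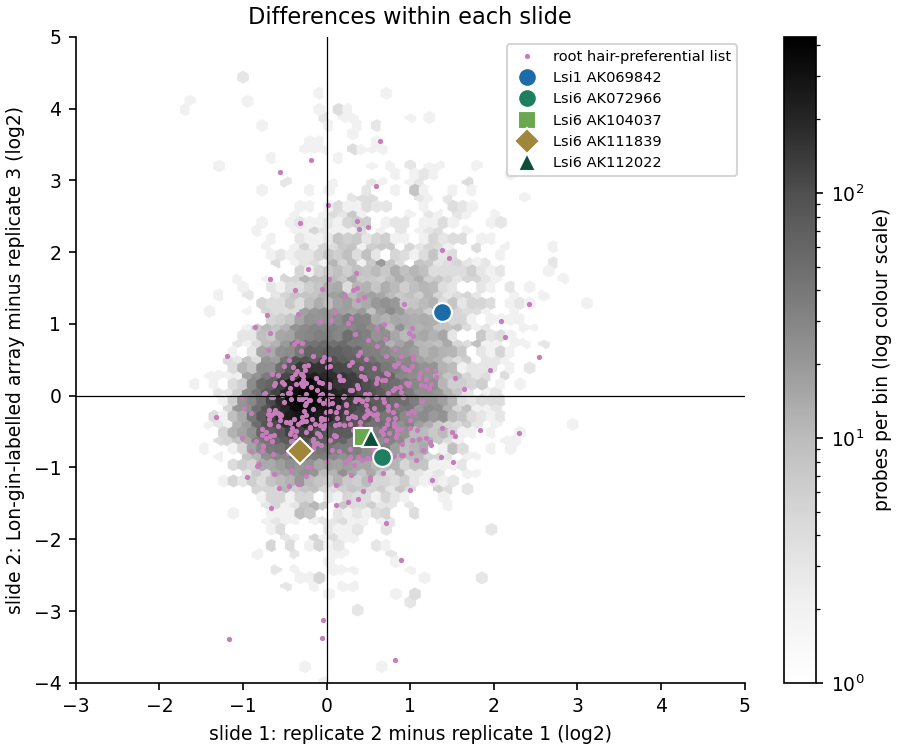
Log2 difference of replicate 2 minus replicate 1 on slide 1 (horizontal axis) against that of the Lon-gin array minus replicate 3 on slide 2 (vertical axis). Grey bins count the 29573 probes detected on every array (log colour scale), pink points are the 409 probes of the study's root hair-preferential list, and large symbols are the probes of Lsi1 and Lsi6 (Lsi2 is not among the probes detected on every array). Lsi1 lies at 1.38 and 1.17, in the upper right, and the Lsi6 probes lie below 0 on the vertical axis.

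The genes that the study selected as root hair-preferential were read in the same pairs. They were chosen for high expression on these same arrays, so they are not a neutral background for hair RNA. The detected probes set beside them were not chosen in this way. Their 409 probes had medians of 0.15 and −0.20 in the pairs. Both differences were above 0 for 99 of them (24.2%), beside 26.1% of all detected probes, and both were below 0 for 110 (26.9%), beside 31.4%. Both were over 1 for 4 of the 409, beside 742 of the 29573 detected probes (2.51%). OsCSLD1 (Os10g0578200), a cellulose synthase-like gene needed for root hair growth, is itself on that list and is no independent marker here. It was detected on every array, with levels of 14.22, 14.03, 14.90 and 14.44. Its differences in the pairs were −0.20 and −0.46, both below 0. Genes were tied to an annotation only through the study's list of root hair-preferential genes. Markers of exodermis, endodermis and stele were therefore not read, although the array has probes for some of them. The part of such cells in the Lsi1 and Lsi6 signal was not tested.

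Across the arrays Lsi1 and Lsi6 had different orders. As deviations from its own mean, Lsi1 had −0.55, 0.83, −0.73 and 0.44. Lsi6, averaged over its probes, had −0.50, −0.17, 0.68 and −0.02. Replicate 3 was the lowest array for Lsi1 and the highest for Lsi6. The root mean square difference between these patterns was 0.90. Of the other genes detected on every array, 77.4% lay nearer to Lsi1 than Lsi6 did, and 90.8% lay nearer to Lsi6 than Lsi1 did. Lsi2 was left out, since it had only a bound on replicates 1 and 3.

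**Figure D4:**
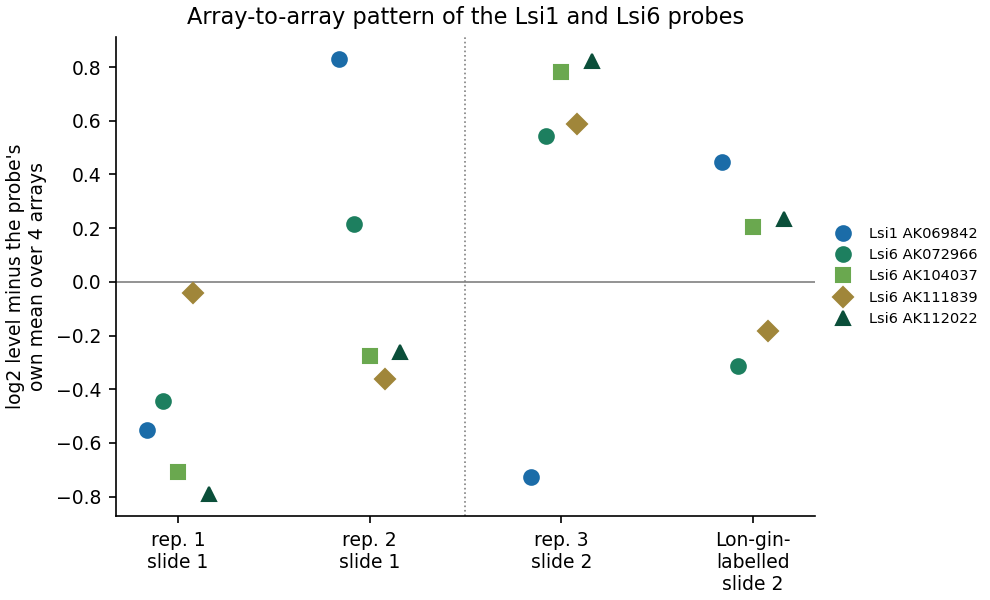
Log2 level of each Lsi1 and Lsi6 probe minus its own mean over the 4 arrays (vertical axis), by array and slide (horizontal axis), with a dotted line between the slides. Lsi1 is above its mean on replicate 2 and the Lon-gin array and below it on the others, while all Lsi6 probes are above their means on replicate 3.

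By the same measure, the genes most like Lsi1 and Lsi6 were sought among the genes detected on every array. For Lsi1, among 20142 genes, they were Os03g0345100, Os06g0571800 and Os03g0841600, with root mean square differences of 0.057, 0.062 and 0.075, and 44 genes (0.218%) lay within 0.2. For Lsi6 they were Os07g0617500, Os02g0315400 and Os02g0626400, with 0.015, 0.036 and 0.039, and 526 genes (2.61%) lay within 0.2. These counts are not compared, since Lsi6, a mean of 4 probes, also lay nearer to genes in general, with a median difference of 0.57 against 0.74 for Lsi1. With only 4 arrays of 1 condition these likenesses describe array-to-array variation, and the genes named are not annotated in the sources used here.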

How the data were processed

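The authors read the scanned arrays with Agilent Feature Extraction, for which the file headers give version 11.5.1.1 and the submitters' processing notes 9.1, and deposited the intensity of each spot. These values were background-subtracted and not normalized between arrays. The authors also deposited log2 values, whose ranks equal those of the median signal on each array and whose medians (7.70 and 7.71 on slide 1, 8.50 and 8.51 on slide 2) differ between slides. How they were normalized is not given in the sources used, and they served as an alternative.

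Control spots were left out, which kept 43734 spots of 42477 probes. Outlier-flagged spots were dropped where the probe had another spot (126 values, none of a member). No member spot was saturated. Log2 processed signals were averaged per probe and scaled to each array's 75th percentile, with the mean percentile added back. Detection used the deposited calls of the software. Member probes were reported one by one, and probes of a gene were averaged only for the comparison of patterns. Comparisons used limma 3.58.1 in R 4.3.3 over probes detected on the lone array or all 3 others, or on both arrays of a slide, and the lone array was assumed to vary like the others. Tables were made in Python 3.11.15 and pandas 2.3.3. RefSeq genes were matched for all 3 genes, on an assembly other than that of the array.

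Alternatives were other scalings, normexp (offset 50), run on median signals as no mean signal was at hand, the deposited values, other detection rules, no filter, leaving out each array and the slide as a block. The genes named were the members, listed silicon, NIP, root hair, exodermis, endodermis and stele genes that could be tied to an annotation, and the 3 genes most alike per member, not given for Lsi2 because it was not detected on every array. Of 23 listed genes 18 had a probe and 2 could be tied to an annotation, which was read only from the study's root hair-preferential list. The second of these, Os10g0122600, annotated as a protein with a cellular retinaldehyde-binding/triple function domain, was 16.58 ± 0.37 (SD, n = 4). The members and lists were chosen with earlier results of these data known. The table had 0 unused columns of per-sample values.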

Additional observations from a re-analysis of the deposited data

How the results depend on the processing

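Lsi1 and Lsi6 were detected under every detection rule. Leaving out 1 array could not undo this, since both were detected on every array. With quantile normalization, with normexp and in the deposited values, the mean levels of Lsi1 and of the 3 bright Lsi6 probes moved by less than 1 SD. Shifting whole arrays, keeping outlier spots or leaving out 1 array could not move these means that far, so they did not test this. Lsi2 moved from 3.37 to 7.19 with normexp and to 5.64 in the deposited values, and AK111839 from 5.40 to 7.54 and 6.39. Low signal over background limits both.

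The number of probes called on the Lon-gin array was 1, against 64 with quantile normalization, 4 with normexp, 0 in the deposited values (6.17% under 0.05 unadjusted), 0 with no filter (7.68% unadjusted) and 1932 with the slide as a block, and it ranged from 0 to 4623 when 1 array was left out. Between slides 1130 probes were called, against 178 with quantile normalization, 128 with normexp and 3132 with no filter, with a range of 0 to 3503 when 1 array was left out. Without replicate 3, 4623 and 3503 were called in these comparisons. On the Lon-gin array the Lsi2 difference turned to −0.40 with quantile normalization, −0.13 with normexp and −0.30 in the deposited values, and that of AK072966 to 0.24 in the deposited values. With the slide block AK104037 had −0.58 and AK112022 −0.59. When 1 array was left out, the range was −0.19 (without replicate 3) to 1.41 for Lsi2, −0.051 (without replicate 1) to 0.70 for AK104037, −0.047 (without replicate 1) to 0.76 for AK112022 and −0.46 to 0.018 (without replicate 3) for AK111839. Between slides AK111839 turned to −0.35 with quantile normalization and −0.11 with normexp. When 1 array was left out, the slide difference ranged from −0.97 to 0.41 for Lsi1, above 0 without replicate 2 or 3, and from −0.20 to 0.66 for AK072966, below 0 without replicate 1 or 3. The cause was not tested. No probe of Lsi1 or Lsi6 passed the threshold in any of these fits. Lsi2, whose differences rest on arrays where it was not well above background, passed only with the slide block. No pairing by replicate number was possible, because the arrays labelled Don-gin and the Lon-gin array share no replicate number. The slide block is a term for the batch.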
